A study of Mus musculus with 2 samples.

Results

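Transcript models placed outside every annotated gene were examined in the adrenal gland. The class comes from TALON, which assigns each long read to an annotated or unannotated model. They are all rows of the class Intergenic in the transcript tables of 2 libraries. The rule found 1503 of the 63014 transcript models of replicate 1 and 2123 of the 67079 of replicate 2, which gives 3626 of 130093 in all. Of these, 1376 and 1950 had a single exon, and 127 and 173 were spliced. The libraries were made by long-read RNA sequencing of total RNA from adrenal gland tissue of male mice aged 36 days. The animals were B6CASTF1/J, hybrids of the inbred strains C57BL/6J and CAST/EiJ. With 1 group and no treatment labelled, there were no conditions to compare. The labels disagree on whether the replicates are from separate animals, so part of their spread may be technical.

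The annotation used was GENCODE M21 on the mm10 genome. RNA from outside annotated genes has several known kinds of source. It includes long noncoding RNAs that a gene catalogue lacks, RNA that continues past a gene's 3′ end, and RNA that starts at a gene's promoter and runs the other way, since many mammalian promoters fire in both directions. Priming on genomic A-rich stretches and reads placed on the wrong copy of a repeated sequence can give such models too. Splicing, the same intron borders in a second library and another catalogue's gene at the same place are the usual descriptions of such a model.

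Promoter sequences are shown for 6 recurrent loci because the start of the model lies in a RefSeq promoter window there (250 bases before to 50 bases after a gene's start, build GRCm38.p6). Each is the stretch of 160 bases of that window that lies outside exons of M21, written 5′ to 3′ on the strand of the named gene. At Gm29688, Gm41062 and Gm38872 the stretch runs past the RefSeq start of the gene. Capitals mark CG dinucleotides. At Tbc1d22a, P4hb and Pomt1 the model runs away from the gene on the opposite strand, and it covers all 160 bases of the stretch. At Gm29688, Gm41062 and Gm38872, which RefSeq lists as lncRNA genes, a spliced model starts on the gene's own strand.
Tbc1d22a promoter, chr15:86214299-86214458, plus strand: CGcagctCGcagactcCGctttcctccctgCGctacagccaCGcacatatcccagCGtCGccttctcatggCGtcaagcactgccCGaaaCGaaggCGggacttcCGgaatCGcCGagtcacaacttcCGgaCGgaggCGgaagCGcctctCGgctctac
P4hb promoter, chr11:120573254-120573413, minus strand: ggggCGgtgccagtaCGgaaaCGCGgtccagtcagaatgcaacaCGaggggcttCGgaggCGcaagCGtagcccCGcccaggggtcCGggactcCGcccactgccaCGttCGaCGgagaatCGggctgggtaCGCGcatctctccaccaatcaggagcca
Pomt1 promoter, chr2:32236430-32236589, plus strand: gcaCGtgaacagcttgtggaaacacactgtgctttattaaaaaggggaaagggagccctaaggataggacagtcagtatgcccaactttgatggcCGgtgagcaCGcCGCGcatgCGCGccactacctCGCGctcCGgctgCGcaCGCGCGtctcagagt
Gm29688 promoter, chr8:126979389-126979548, minus strand: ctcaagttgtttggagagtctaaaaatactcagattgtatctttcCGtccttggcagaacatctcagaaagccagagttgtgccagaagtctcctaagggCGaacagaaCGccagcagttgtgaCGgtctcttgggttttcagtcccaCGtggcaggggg
Gm41062 promoter, chr13:112100812-112100971, plus strand: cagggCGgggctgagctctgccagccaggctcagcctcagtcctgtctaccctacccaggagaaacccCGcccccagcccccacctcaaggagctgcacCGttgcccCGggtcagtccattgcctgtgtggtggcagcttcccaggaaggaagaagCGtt
Gm38872 promoter, chr6:108212869-108213028, minus strand: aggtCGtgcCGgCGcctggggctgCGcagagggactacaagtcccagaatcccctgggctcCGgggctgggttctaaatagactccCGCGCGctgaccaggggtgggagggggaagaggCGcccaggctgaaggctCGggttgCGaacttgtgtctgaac
The Tbc1d22a stretch held 19 CG dinucleotides, the P4hb stretch 17 and the Pomt1 stretch 14, against 5 in each of the Gm29688 and Gm41062 stretches and 11 in the Gm38872 stretch. In replicate 2 the spliced model began 48 bases after the RefSeq start of Gm29688, 39 bases before that of Gm41062 and 178 bases before that of Gm38872. In replicate 1 the Gm41062 model was 559 bases long, against 407 in replicate 2, and began farther out, at chr13:112100731. The motif GGGCGG, searched on both strands, was in the P4hb and Gm41062 stretches, CCAAT was in the P4hb stretch, and TATAAA was in none of the 6.

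Intergenic models were many but shallow. They held 3231 of 452437 endogenous reads in replicate 1, or 0.714% (Wilson 95% interval 0.690 to 0.739), and 4461 of 463102 in replicate 2, or 0.963% (0.936 to 0.992). The share was 1.35 times higher in replicate 2 (95% interval 1.29 to 1.41), and the libraries differed beyond counting error in Fisher's exact test (two-sided p = 3.83e-39). The mean share was 0.839 ± 0.176% (SD, n = 2). In bulk tissue, fewer cells of a type and less RNA per cell cannot be told apart. A single read made up 77.7% of the models of replicate 1 and 79.0% of those of replicate 2, and only 34 and 41 models had at least 10 reads. Those few models held 36.4% and 34.1% of all Intergenic reads.

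The libraries also differed in tissue markers. Reads of 6 adrenal cortex markers stood at 29797 in replicate 1 and 24748 in replicate 2, and those of 5 chromaffin cell markers at 4741 and 7133. Of 5 pancreas acinar markers, 0 were seen in replicate 1, and all 5 were seen in replicate 2 with 2267 reads in sum. Of 4 liver markers, 1 was seen in replicate 1, with 1 read, and all 4 in replicate 2, with 186 reads. Like the Intergenic share, the chromaffin, pancreas and liver marker reads were higher in replicate 2, while the cortex marker reads were lower. A link between them was not tested. The Intergenic models nearest to a gene of a 21-gene pancreas acinar list held 0 reads in replicate 1 and 2 in replicate 2, and those nearest to a gene of a 10-gene liver list held 0 in both.

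The class name was checked against the annotation. In replicate 1, 289 models (19.2%) shared a base with an annotated gene, and in replicate 2, 438 did (20.6%). The shared stretch was exactly 1 base in all 289 and all 438 models, and that base was an end of the gene. These models are called touching here, and they lie beside the gene rather than in it. In 18 pairs of Intergenic models of replicate 1 and 15 of replicate 2, the last base of one model was also the first base of the next. The deposited positions are those of the models. Whether each read ended at that base was not tested.

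Placement against the nearest gene was not even. Among touching models the commonest place was head to head, with the model's start on the first base of a gene and its body on the opposite strand: 144 models in replicate 1 and 237 in replicate 2. Next came models that began on the last base of a gene and continued on its strand, with 87 and 119. Models that ran into a gene's start on its own strand numbered 31 and 43, and models that met a gene tail to tail 27 and 39. The median distance to the nearest gene was 2911 bases in replicate 1 and 2647 in replicate 2, with a mean of 2779 ± 187 (SD, n = 2). Spliced models were farther out, at medians of 5081 and 5399 bases. Of the models on sequences with any annotated gene, 61.0% and 62.6% lay within 5000 bases of one, and 3.73% and 3.96% lay more than 50000 bases away.

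**Figure D1:**
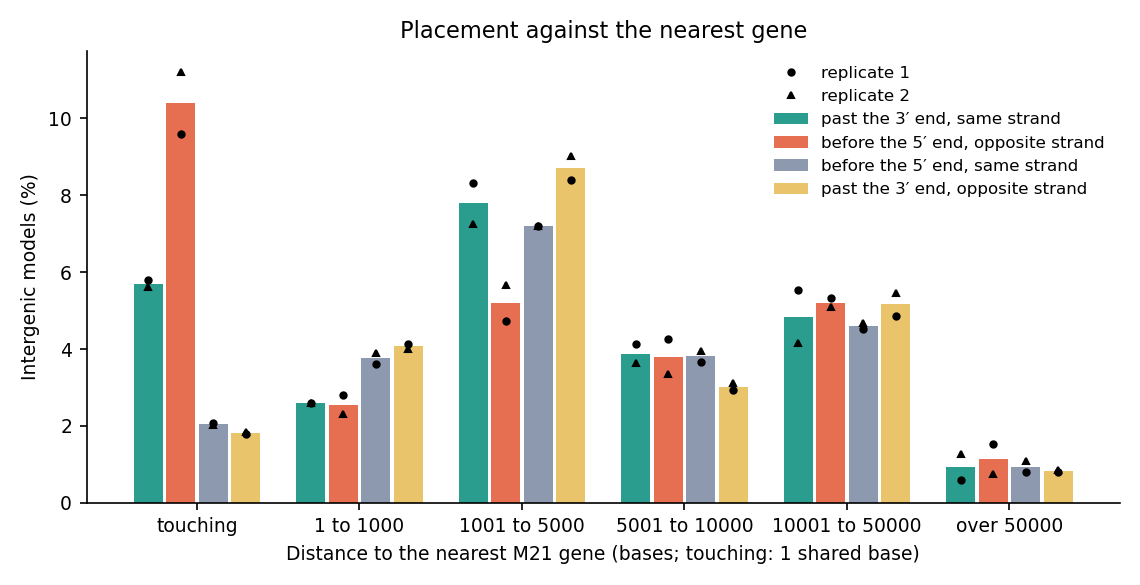
Share of Intergenic models by distance to the nearest annotated gene (x axis, bases) and by side and strand (colours). Bars give the mean of the libraries as a percentage of models, circles replicate 1 and triangles replicate 2. Touching models were most often head to head with a gene's start (9.59% and 11.2% of models).

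Most genes with a head-to-head model had reads of their own, as had most genes near models of other placements. Of the genes touched head to head, 92.4% were protein coding in replicate 1 and 92.0% in replicate 2, and 82.6% and 83.5% of them had reads of their own, against 54.5% and 56.3% of all protein-coding genes. The median of the genes with reads was 11 and 10 reads, against 9 and 8 over protein-coding genes with reads. The locus with the most reads was at Tbc1d22a, a member of a family of GTPase-activating proteins, at chr15:86212657-86214459 on the minus strand. It held 19 reads in replicate 1 and 24 in replicate 2, or 46.9 ± 6.95 CPM (SD, n = 2), where CPM is the read count scaled to the library's endogenous total. The libraries were close there. Bicra, a subunit of a chromatin remodelling complex, had 10 and 9 reads on its opposite strand at chr7:16047921-16049060. P4hb, a protein disulfide isomerase of the endoplasmic reticulum, had 3 and 7 at chr11:120573253-120573774. Pomt1, an O-mannosyltransferase, had 3 and 6. All 4 loci were seen in both libraries, and those at P4hb and Pomt1 were near the limit of 3 reads that a count of 0 allows. Fewer reads lay beside Bmpr2, a receptor for bone morphogenetic proteins, with 2 and 4, and Capzb, an actin capping subunit, with 4 and 3.

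The promoters in which a model started were rich in CG, on either strand. A model's start lay in a RefSeq promoter window on the opposite strand in 88 models of replicate 1 (5.85%) and 158 of replicate 2 (7.44%), and on the same strand in 28 and 35 (1.86% and 1.65%). The median offset of the opposite-strand starts from the RefSeq start of the gene was 0 bases in both libraries. For same-strand starts it was -77.5 and -37.0 bases. These are positions of models, and whether each read began there was not tested. The 216 promoters with an opposite-strand start had a median GC content of 63.7% and a median CG observed over expected ratio of 0.854. The 49 with a same-strand start were close to that, at 62.7% and 0.725. Over all 32851 promoters the medians were 52.7% and 0.384, and over the promoters of protein-coding genes they were 56.3% and 0.567. GGGCGG was in 75.5% of the 216 promoters, against 35.7% of all promoters and 46.2% of those of protein-coding genes. TATAAA was in 6.02%, against 13.6% and 12.6%. CCAAT was in 33.3%, against 37.4% and 38.2%. Of the 37 promoters with an opposite-strand locus in both libraries, 16 held CCAAT (43.2%), 25 GGGCGG (67.6%) and 3 TATAAA (8.11%). In the 49 promoters with a same-strand start, GGGCGG was in 57.1%, CCAAT in 28.6% and TATAAA in 0. Each motif was searched on both strands over the 300 bases, and a match is a description of the letters and not a binding site. The promoters' own genes are mostly protein coding and expressed, and the part of that in the CG content was not tested.

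Models that continued from a gene's last base lay often at pseudogenes. Pseudogenes made up 43.7% of the genes touched this way in replicate 1 and 42.9% in replicate 2, against 24.4% of all annotated genes. They carried most of the reads, 439 of 514 and 548 of 661. Most of these reads lay at Gm12671 in replicate 1, and at Gm12671 and Gm14303 in replicate 2. The locus with the most reads was at Gm12671, a processed pseudogene, at chr4:91851488-91851668 on the minus strand. It held 309 reads in replicate 1 and 158 in replicate 2, or 512 ± 242 CPM (SD, n = 2). The annotated Gm12671 model, which shares only its last base with the locus, went the other way, with 123 and 406 reads. At Gm14303, also a processed pseudogene, the Intergenic locus had 0 and 237 reads and the annotated model 217 and 79. Gm6969 had 5 and 38 Intergenic reads beside 30 and 5 of its annotated model, and Gm9755 had 0 and 20 beside 19 and 8. At these 4 pseudogenes the library with fewer Intergenic reads had more reads of the annotated model. Gm5526 was the same, with 12 and 4 Intergenic reads beside 3 and 15 of its own, but Gm7993 was not, with 1 and 6 beside 1 and 3. Gm6969, Gm9755, Gm5526 and Gm7993 were named after their values were seen. Gm12939 had 41 and 34 Intergenic reads and none of its own, and Gm6767 had 8 and 5 and none of its own. Processed pseudogenes are copies of a spliced RNA, so reads may belong to another copy and their counts are uncertain.

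Genes of the gland's own pathways were counted by the Intergenic models beside them. A gene counted when it was the nearest gene of a model within 10000 bases. Of 22 genes of steroid synthesis, 8 did (36.4%), and of 30 chromaffin genes 4 did (13.3%), against 3.86% of all annotated genes and 14.2% of the 1757 genes with at least 100 reads. Neither comparison set was matched to the lists by the reads of its genes, and the part of read depth was not tested. Srd5a2, a steroid reductase that makes dihydrotestosterone, had 0 reads beside it in replicate 1 and 43 in replicate 2. The locus with 42 of these overlaps models of Srd5a2 itself. With reads of all classes it held 812 and 773, and the libraries did not differ there by the call used below. Fdx1, the ferredoxin that feeds electrons to mitochondrial steroid enzymes, had 4 and 2 reads that continued from its last base. Cyp11b1, which makes corticosterone, had 0 and 2 head to head, and Akr1b7, an aldose reductase-like enzyme of the cortex, had 1 and 0. Cyb5a, Hsd3b1 and Scarb1 had 0 and 1 each, and Mc2r, the receptor for adrenocorticotropic hormone, had 1 and 0. Apart from Srd5a2, each of these 8 genes stood at 4 reads or fewer in a library, too few to compare the libraries. In the medulla list, Dbh and Th, both enzymes of catecholamine synthesis, had 2 and 1 and 2 and 0 reads, and the transcription factor gene Phox2a had 1 and 2.

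Single-exon models had a narrow preferred length. The median was 226 bases in replicate 1 and 205 in replicate 2, but 489 (35.5%, Wilson 95% interval 33.1 to 38.1) and 721 (37.0%, 34.9 to 39.1) of them were 140 to 190 bases long. Within that range the commonest lengths were 176 bases in replicate 1 (42 models) and 177 in replicate 2 (62 models), with a lower maximum at 153 and 158 bases. The bin from 170 to 179 bases held 231 and 361 models, and the bin from 200 to 209 bases held 12 and 52. The range was chosen after the lengths were seen. In other classes, models of this length took a smaller share of the single-exon models. The shares were 9.26% and 11.3% of Antisense models, which lie opposite a gene. Genomic models, which overlap a gene without its splicing, had 7.21% and 9.06%, and Known ones 1.15% and 1.28%. By count, Antisense had more than Intergenic, 635 and 1055, and Genomic fewer, 418 and 649. Among bins of 5 bases from 80 to 399, the fullest was 175 to 179 in the Antisense and Genomic classes too. That bin held 1.94% and 2.15% of Antisense and 1.79% and 1.97% of Genomic single-exon models.

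**Figure D2:**
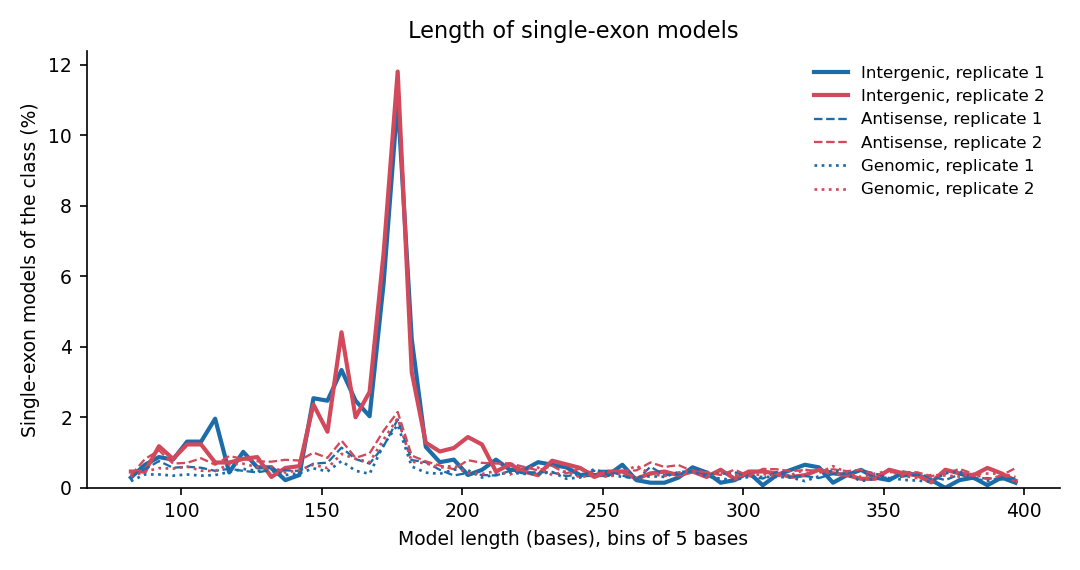
Length of single-exon models (x axis, bases, bins of 5) as a percentage of the single-exon models of each class (y axis). Solid lines are Intergenic, dashed lines Antisense and dotted lines Genomic models, with replicate 1 in blue and replicate 2 in red. Both Intergenic lines have their maximum near 176 and 177 bases, where the other classes have a much lower one.

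Models of 140 to 190 bases were set beside the other single-exon models, with no test. Of the 887 and 1229 others, 745 and 1043 were longer than 190 bases, and the part of length in the values that follow was not tested. The models of 140 to 190 bases lay farther from genes, at median distances of 5351 and 5216 bases, against 1598 and 1296 for the others. Only 2.04% and 2.36% of them touched a gene, against 28.1% and 31.5%. RefSeq had a gene at the place of 14.7% of them in each library, against 39.7% and 36.6% of the others. Their ends were more alike between the libraries. Of 196 such models of replicate 1 that overlapped a single-exon Intergenic model of replicate 2 on the same strand, 145 (74.0%, Wilson 95% interval 67.4 to 79.6) had both ends within 5 bases, against 90 of 250 (36.0%, 30.3 to 42.1) for the others. They held 43.1% and 39.0% of all single-exon Intergenic reads, and of the 79 loci with at least 10 reads, 33 had this span. The genome sequence of these places and repeat annotation were not used here.

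Several of the deepest single-exon loci had a span in this range. The locus at chr15:103619063-103619240, 30552 bases before the lincRNA gene Gm49272, had 71 reads in replicate 1 and 69 in replicate 2, or 153 ± 5.61 CPM (SD, n = 2). Its model was 178 bases long in replicate 2 but 120 in replicate 1. It was the most even of the 8 deepest single-exon loci seen in both libraries. The locus past 2510046G10Rik, an antisense gene, had 36 and 64 reads. One near AC162923.1 had 27 and 60, and one 48788 bases before Lypd6, which codes for a Ly6 domain protein, had 25 and 56. These 3 loci were higher in replicate 2, and the last 2 passed the call that is described with the comparison of the libraries. Long single-exon loci were present as well. A model of 4384 bases lay 16012 bases past Fgfr4, a fibroblast growth factor receptor gene, on the same strand (chr13:55184771-55189154), and had 126 reads in replicate 1 and 66 in replicate 2.

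Recurrence rose steeply with the reads of a model. A model counted as found again when an Intergenic model of the other library overlapped it on the same strand. Of the models of replicate 1, 504 (33.5%, Wilson 95% interval 31.2 to 36.0) were found in replicate 2, and of those of replicate 2, 502 (23.6%, 21.9 to 25.5) were found in replicate 1. Among models with 1 read the shares were 23.7% and 14.5%, and among those with at least 10 reads they were 97.1% and 90.2%. A model of 1 read in one library is below the 3 reads that a count of 0 in the other allows, so its absence there was not detectable at this depth. Single-exon and spliced models recurred at close shares, 33.6% and 33.1% in replicate 1 and 23.7% and 23.1% in replicate 2. Another 98 and 133 models overlapped only a model of another class in the other library. All 4 models of at least 10 reads in replicate 2 with no Intergenic counterpart were among these. An overlap of 1 base was enough for this. At Gm14303 and Gm9755 the only such model in replicate 1 was the annotated pseudogene model, which shares just 1 base.

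**Figure D3:**
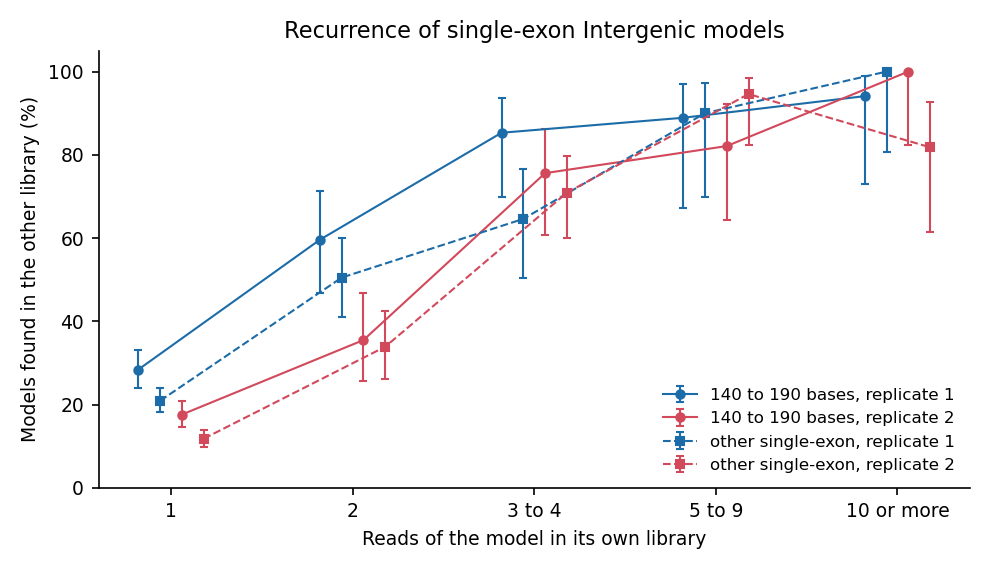
Percentage of single-exon Intergenic models found in the other library (y axis) by the reads of the model in its own library (x axis). Circles are models of 140 to 190 bases and squares the other single-exon models, in blue for replicate 1 and red for replicate 2, with Wilson 95% intervals. The shares rise from 28.4% and 17.6% at 1 read to 94.1% and all 18 models at 10 reads or more for the models of 140 to 190 bases.

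Spliced models took a small share of the Intergenic reads. They held 177 reads (5.48%) in replicate 1 and 228 (5.11%) in replicate 2, with a mean of 5.29 ± 0.260% (SD, n = 2), and Fisher's exact test on the reads did not pass (two-sided p = 0.501). Models of 2 exons made up 70.1% and 71.1% of them. The median intron was 1970 and 1535 bases. An identical chain of introns was found in both libraries for 20 chains, which is 15.7% of the spliced models of replicate 1 and 11.6% of those of replicate 2. Of the 20 chains, 5 had at least 2 reads in each library and 9 had 1 read in each.

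Most of the recurrent chains lay where RefSeq has a gene. This held for 13 of the 20, and 9 of these genes were on the same strand. Gm29688 had 4 reads in replicate 1 and 6 in replicate 2 across an intron of 1074 bases at chr8:126978048-126979390. Gm41062 had 3 and 4 across an intron of 406 bases at chr13:112100731-112101695. The chain at Gm30421 was the deepest with 3 exons, with introns of 630 and 7871 bases and 1 and 6 reads. Gm38872, whose model touches the first base of Itpr1 head to head, had 2 and 5 reads. Itpr1 codes for an inositol trisphosphate receptor. Gm32800 had 1 and 3 reads. All 5 are lncRNA genes in RefSeq, and their reads were few: only the Gm29688 locus reached 10 reads and was tested, and it was not called. Head-to-head chains with 2 or 3 reads in sum also lay at Med26, a Mediator subunit gene, Prep, a peptidase gene, and Coa6, a cytochrome oxidase assembly gene.

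Not every recurrent chain had a RefSeq gene. The one with the most reads lay on chromosome Y, at chrY:43918756-43923547 on the minus strand, 28615 bases from the pseudogene Gm21241. It had 21 reads in replicate 1 and 13 in replicate 2, or 37.2 ± 13.0 CPM (SD, n = 2), and an intron of 77 bases in models of 4188 and 4715 bases. The long arm of the mouse Y chromosome is made of repeated copies, so the copy these reads came from is uncertain. A chain near Gm43834 had 2 and 5 reads across an intron of 318 bases, and one near AC154486.1 had 3 and 1 across an intron of 445 bases. Whether the intron borders carry the usual splice dinucleotides was not tested.

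RefSeq listed a gene at the place of many more Intergenic models. An overlap of at least 2 bases was found for 32.9% of models in replicate 1 and 30.8% in replicate 2. The shares were 55.6% and 57.0% for spliced models and 30.8% and 28.5% for single-exon ones. The strand was known for 27024 of the 49993 RefSeq genes, so overlaps by strand are minimum counts. Of the 70 and 98 spliced models at a RefSeq gene, 53 and 73 were at a lncRNA gene, and 36 and 47 were at a lncRNA gene known to be on the same strand.

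The libraries were then compared locus by locus, with the models of both libraries that overlapped on the same strand joined into 1 locus. This gave 3098 loci, of which 490 had reads in both libraries, 993 in replicate 1 alone and 1615 in replicate 2 alone. Of these, 79 had at least 10 reads in sum and were tested, 75 of them single-exon. By Fisher's exact test with Benjamini-Hochberg adjustment over all genes and loci, 21 were called (adjusted p under 0.05 and at least 2-fold after 1 CPM was added), 13 higher in replicate 2 and 8 higher in replicate 1. That is 26.6% of the loci tested, against 3.17% of annotated genes called and 3.40% of all features called. These shares are of unlike counts, since a gene's count took in reads of every class and a locus's only Intergenic reads. With reads of every class counted at the loci, 16 of the 79 were called, 8 each way. By direction, 1.45% of annotated genes and 1.59% of all features were called higher in replicate 2, and 1.72% and 1.80% higher in replicate 1. The median log2 difference of the 79 loci was 0.07, against -0.03 over all features, and the calls lay on both sides. Such a test sets one library against the other and says nothing of a condition.

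**Figure D4:**
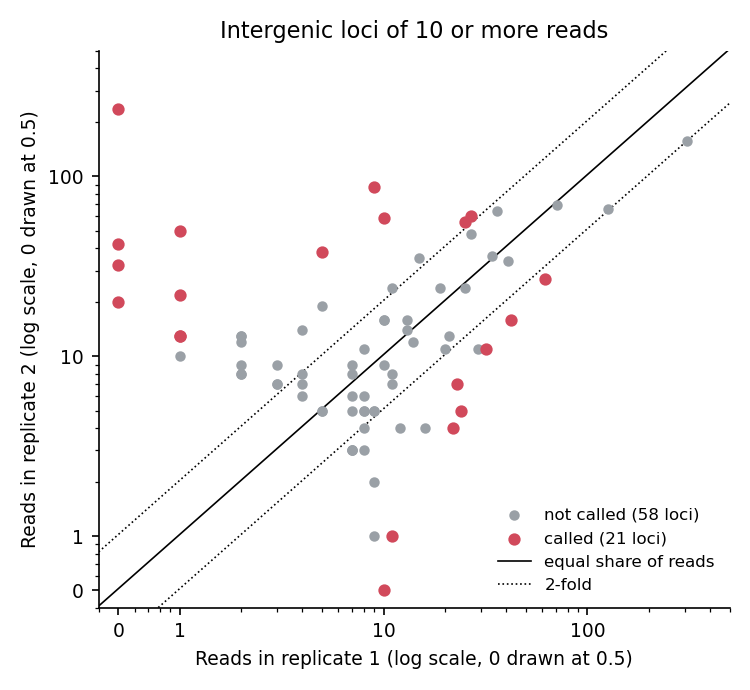
Reads of the 79 Intergenic loci with at least 10 reads in sum, replicate 1 on the x axis and replicate 2 on the y axis (log scales, with 0 drawn at 0.5). Each point is a locus, with the 21 called ones in red. The solid line marks an equal share of endogenous reads and the dotted lines a 2-fold difference. The 4 red points at 0 in replicate 1 have 20 to 237 reads in replicate 2.

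At some called loci the other library had reads of another class. When the reads of every class that overlapped a locus on its strand were counted, 15 of the 21 loci passed again and 6 did not. All 4 called loci with 0 Intergenic reads in replicate 1 had reads of another class there. At Klhl10, a gene known from sperm formation, replicate 2 had 32 Intergenic reads and replicate 1 had 41 Genomic ones over the same 4649 bases (chr11:100457022-100461670). Past Srd5a2, at chr17:74014890-74016298, the 42 Intergenic reads of replicate 2 lay where NNC models of Srd5a2, which have a splice site that is not annotated, held 697 reads in replicate 1 and 626 in replicate 2. With all classes the locus held 812 and 773 reads. At Gm14303 the Intergenic count was at least 77.2-fold higher in replicate 2 (against a floor of 3 reads in replicate 1, adjusted p = 7.92e-68), and 217 and 316 reads with all classes gave a log2 difference of 0.51. At Gm14303, Gm6969 and Gm9755 the added reads were mainly those of the annotated pseudogene model, which meets the locus in 1 base.

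**Figure D5:**
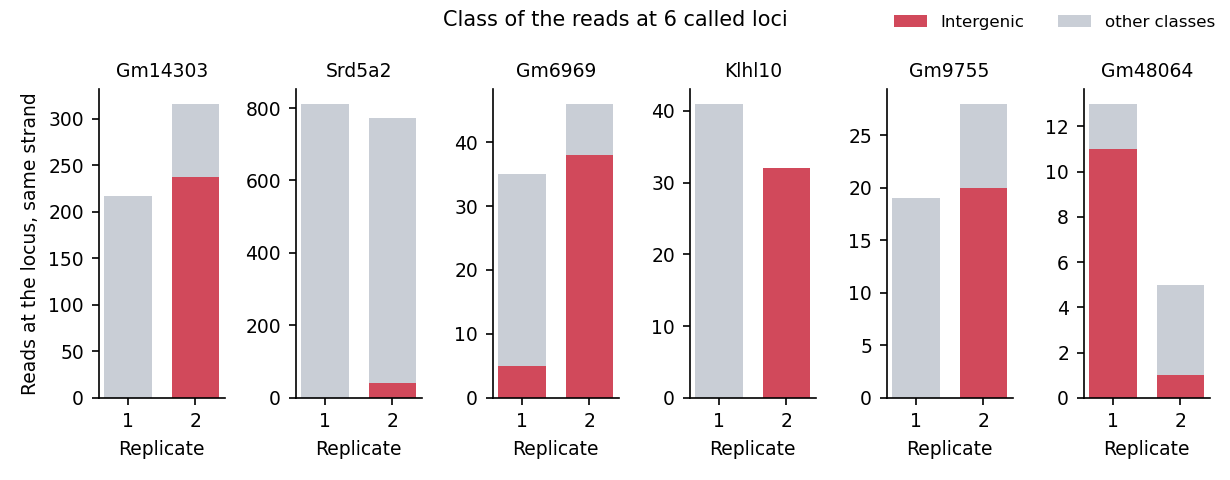
Reads on the same strand at the 6 called loci that did not pass when all classes were counted, by replicate (x axis), with Intergenic reads in red and reads of other classes in grey (y axis, reads, a separate scale for each locus, starting at 0). At Klhl10 replicate 1 has 41 reads, all of other classes, and replicate 2 has 32, all Intergenic.

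At the deepest of the other called loci no reads of another class were found. It lay at chr6:3200774-3201527, 6342 bases before the pseudogene Gm2651, with 9 reads in replicate 1 and 87 in replicate 2. That is a ratio of 9.44 (95% interval 4.75 to 21.3, adjusted p of Fisher's exact test 5.94e-15). The locus past Gm15569 had 10 and 59 reads, and one 8232 bases past Rimbp3 had 1 and 50, a ratio of 48.8 with an interval of 8.37 to 1968. The loci near AC162923.1 and Lypd6 were higher in replicate 2 by 2.17 and 2.19 times (adjusted p = 0.0123 and 0.0166, Fisher's exact test). Gm15569 and Rimbp3 were picked after their values were seen.

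Of the 8 loci called higher in replicate 1, the one with the most reads, 12122 bases past Oxnad1, a predicted oxidoreductase gene, had 62 reads in replicate 1 and 27 in replicate 2, 2.35 times higher in replicate 1 (95% interval 1.47 to 3.84, adjusted p of Fisher's exact test 0.00443). One before Eid2, which codes for an inhibitor of differentiation, had 42 and 16. One 1154 bases before Virma, a subunit of the RNA methyltransferase complex, had 32 and 11, and one before Rhbdd2, a rhomboid family gene, had 23 and 7 (adjusted p = 0.0459, Fisher's exact test). Among these named loci the Virma locus spans 179 bases, and the others span 2926 to 5292 bases. The loci called higher in replicate 1 that are not named here span 149 to 3750 bases. The locus past Fgfr4 had a log2 difference of -0.96. The one at Gm12671 was 2.00 times higher in replicate 1, and just under 2-fold higher once 1 CPM was added. Both passed the adjusted p (0.000234 and 2.67e-11, Fisher's exact test) but fell short of the 2-fold limit, which applies after that addition. At Gm12671 the direction turned when all classes were counted, since the annotated pseudogene model was then added: 432 reads in replicate 1 and 564 in replicate 2 gave a log2 difference of 0.35 (adjusted p = 0.00377, Fisher's exact test).

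The loci farthest from any gene were few. Of those with at least 5 reads in each library, the 3 farthest were the Lypd6 locus at 48788 bases, the Gm49272 locus at 30552 bases and the chromosome Y locus at 28615 bases, all given above. The farthest model of all lay 286380 bases from a gene in replicate 1 and 374391 in replicate 2.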

How the data were processed

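Each of 2 libraries of 1 group gave a table of transcript models with whole read counts. The authors deposited these counts with no normalization. Per the file headers, the columns are those of TALON with the GENCODE M21 annotation on mm10. No aligner or program version is given in the sources used here. Spike-in reads were left out, which left 452437 and 463102 endogenous reads, so 1 read was worth 2.21 and 2.16 CPM. The limit for an unseen model is 3 counts, or 6.63 and 6.48 CPM. Model positions came from each library's deposited annotation file, gene positions from M21, and names, strands and promoters from RefSeq (GRCm38.p6).

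Members, lists and tests were chosen with earlier results of these data known. Loci named in the text were the 8 spliced and 8 single-exon loci with the most reads in both libraries, the 4 called each way with the most reads, and the 3 farthest from a gene. Other names were chosen after their values were seen. Some items are not reported here. Promoters are printed where 3′ ends and splice sites had been planned, since a genome was not used here. Shares carry Wilson 95% intervals and ratios exact conditional 95% intervals. These, the floors and Fisher's exact test (two-sided, Benjamini-Hochberg over 8214 features) cover counting error only, and reads without molecular identifiers are not independent molecules. Python 3.11.15, scipy 1.17.1 and pandas 2.3.3 were used, with edgeR 4.0.16 and DESeq2 1.42.0 for other scalings alone. The test was tested on simulated data.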

Additional observations from a re-analysis of the deposited data

How the results depend on the processing

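The recurrence of models, 28.6% as a mean of both libraries, moved to 62.9% with models of at least 2 reads and to 91.2% with at least 5. It lay between 23.4% and 35.0% when 50% of each model had to overlap, on either strand, with any class, or by at least 2 bases. The median distance to a gene, 2779 bases, moved to 10286 bases with genes on the same strand, 5292 with protein-coding genes and 3158 with gene spans of the library's own file. The Intergenic share stayed higher in replicate 2 in each setting, with means from 0.613% (without touching models) to 0.840%. Without the 4 loci of 20 or more reads that have 0 in replicate 1, it was 0.714% and 0.892%. This setting, the one without touching models and the 2-base overlap were chosen after seeing the data. The count of called loci lay between 16 and 23. With 14 named loci tested under 7 settings, 90 of 98 values kept their direction and call, 5 lost the call and 2 gained it. The locus at Gm12671 reversed, to a log2 difference of 0.35, when reads of every class were counted, which adds those of the annotated pseudogene model. Rhbdd2 lost its call with TMM factors, DESeq2 size factors and lower read minimums, and the loci at Gm12671 and Fgfr4 were called with no minimum fold. Means of 2 libraries without replicate 1 or 2 are the values of the other library. No paired analysis was possible because there is only 1 group. Poly(A) signals, A-rich sequence after the 3′ end and splice dinucleotides were not run, since a genome was not used here. Depth limits all results on single-read models.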

Other observations

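A few Intergenic models lay outside the autosomes and the X chromosome. On chromosome Y, 11 models in each library held 35 and 25 reads. On the mitochondrial chromosome, 1 model of replicate 1 held 3 reads and 2 of replicate 2 held 2. On scaffolds, 6 and 9 models held 31 and 32 reads, most of them at a single-exon locus of 550 bases on the scaffold GL456382, with 25 reads in replicate 1 and 24 in replicate 2. No annotated gene lies on that scaffold, so its distance to a gene has no value. A further 40 and 71 models of other classes, with 94 and 108 reads, belonged to the same unannotated genes as Intergenic models and were not counted as members.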
